A study of Mus musculus with 12 samples.

Results

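The genes described here build and load the vesicles that move protein between the endoplasmic reticulum (ER) and the Golgi. They were taken from a list of 41 gene names, and all 41 were found among the 13886 genes of the deposited mouse count matrix. By known role they fall into 12 genes of the COPII coat and its assembly, 10 of the COPI coat and the Arf cycle, 12 cargo receptors, and 7 tethers, SNAREs and related membrane proteins. COPII forms at ER exit sites when Sar1 is loaded with GTP, recruits Sec23 and Sec24 and is closed by a cage of Sec13 and Sec31, and Sec24 together with membrane receptors picks the cargo. COPI, which is recruited by Arf GTPases, carries escaped ER proteins and receptors back. Plasma cells are known for secreting antibody in bulk, which passes through this route.

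The cells were lymph node B cells and plasma cells (PC) of 3 mice, labelled AER-1408, AER-1409 and AER-1410 and called mice 1, 2 and 3 here. The mice were immunised with NP-KLH, with Sigma Adjuvant System as adjuvant, and given tamoxifen, and live eYFP+ cells without IgD were sorted from draining lymph nodes on day 16 of the primary response, 5 days after the gavage. The sorted PC went into other wells than the remaining B cells, in a droplet assay that reads the 5' end of transcripts and counts each molecule once by a unique molecular identifier (UMI). The 12 libraries, in 6 groups (for PC and for non-PC, libraries of mRNA, of hashtags and of receptor sequences), end in 1 pooled matrix of 6000 cells and 51973226 UMIs. The authors' annotation names 6 states: 137 PC, 49 pre-plasma cells (prePC), 396 pre-memory cells (preMem), and 3 germinal center (GC) states, namely 165 cells moving from the light to the dark zone (LZtoDZ), 2213 light zone cells (LZ) and 3040 dark zone cells (DZ). All cells share the immunisation, the tamoxifen and the reporter. The promoter that drives the reporter, the strain of the mice and their age are not stated in the sources at hand.

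UMIs were summed per mouse and state, which gave between 83381 (prePC of mouse 3, 10 cells) and 10709429 UMIs (DZ of mouse 3) per sum. Levels are CPM (a gene's UMIs relative to the total of its sum, on the usual CPM scale) adjusted with TMM factors. Errors after ± are SD over the 3 mice for levels and standard errors for log2 fold changes. Marker values are the exception and are given as unscaled CPM, without TMM factors. For CPM and fold changes of single genes GC is the average of its 3 states. For summed shares, UMIs per cell, single cells and pooled values it is all cells of the 3 states together, most of them DZ. The 10 PC markers summed to between 20394 and 25988 CPM in PC and to at most 1858 CPM in any GC sum. Most of this was Jchain (17581 to 22712 CPM in PC, at most 1526 CPM in GC). Each of the 10 was higher in every PC sum than in every GC sum, so the PC label fits its markers. Slamf7 came closest, at 218 CPM or more in PC and up to 188 CPM in DZ. In prePC the 10 summed to between 1801 and 4389 CPM, of which Jchain gave 1330 to 3862 CPM, with Fkbp11 and Bhlha15 at 0. Prdm1 had 38.4, 7.38 and 72.0 CPM in prePC of mice 1, 2 and 3, against 29.2, 27.6 and 33.5 CPM in PC. The 8 pre-memory markers summed to between 1122 and 1631 CPM in prePC, between 1412 and 1533 CPM in preMem and at most 69.1 CPM in any GC sum, and their part in the differences between prePC and GC was not tested. The 6 T cell markers were all at 0 in PC, where the 5 detected myeloid markers summed to at most 24.5 CPM. In prePC the T cell markers summed to between 0 and 48.0 CPM and the myeloid markers to between 14.8 and 442 CPM, against at most 8.21 CPM in LZ and 7.88 CPM in DZ. Immunoglobulin genes took 36.4% of the UMIs of PC, against 2.96% in prePC and 1.37% in GC. Each cell name holds a number, 1 or 2, in the field before the barcode. This number is called the barcode suffix here (first or second), and no barcode occurs under both. Of the PC, 117 carried the second suffix and 20 the first, whereas 47 of 49 prePC and all but 3 GC cells carried the first.

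In PC, 39 of the 41 genes were higher than in GC and 1 was lower at an adjusted p under 0.05 (edgeR's quasi-likelihood test, Benjamini-Hochberg over 8473 genes), where 53.1% of all genes tested were called, 25.9% higher and 27.2% lower. The median log2 fold change of the 41 genes was 1.95, against -0.09 over all genes tested. In 39 genes every PC sum was above all 9 GC sums and in 1 every PC sum was below them, where this held for 18.8% (above) and 19.4% (below) of all genes tested. Sec24b was the lower gene, and Trappc3 passed the test in neither direction. By role, the median log2 fold change was 2.72 for the 12 cargo receptors (12 higher), 1.92 for COPII (11 higher, 1 lower), 1.84 for tethers and SNAREs (6 higher of 7) and 1.53 for COPI and the Arf cycle (10 higher of 10). The widest range within a role was that of COPII, where log2 fold changes ran between -0.995 and 5.42.

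**Figure D1:**
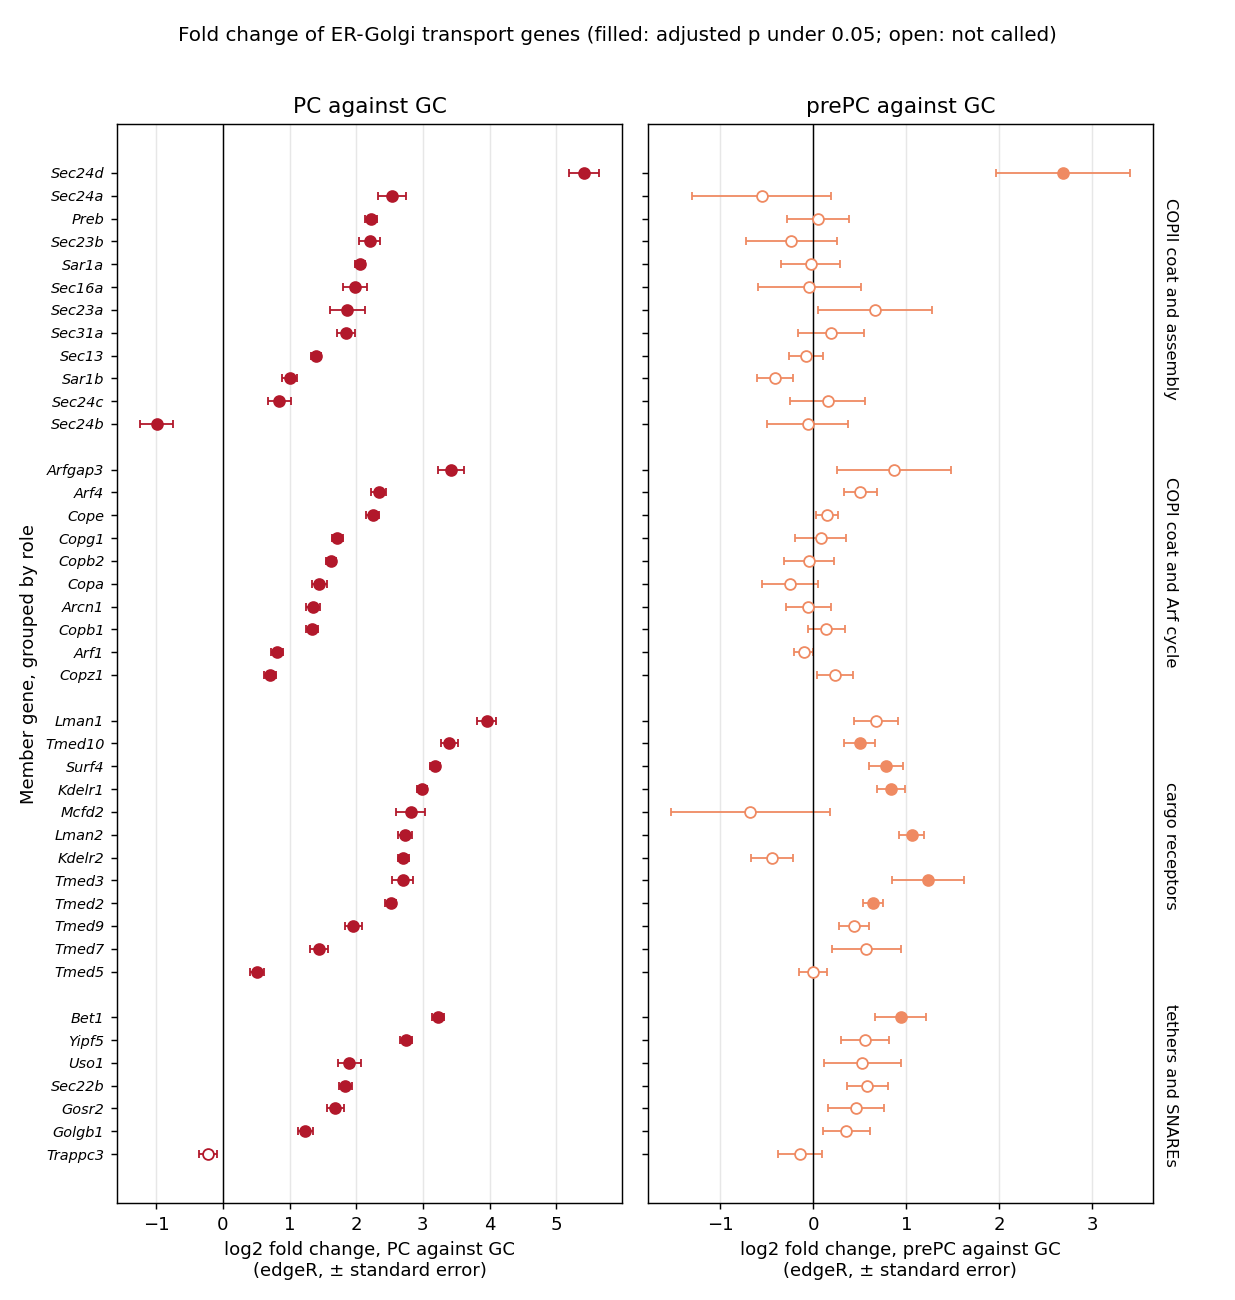
Log2 fold change of each of the 41 genes in PC against GC (left) and in prePC against GC (right), with bars of 1 standard error from the edgeR fit. Filled points passed an adjusted p of 0.05. In the left panel 39 filled points lie right of 0, Sec24b is filled and left of it, and Trappc3 is open, and in the right panel 8 points are filled.

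Some limits touch all values of PC. The TMM factors of PC were lower than those of GC by 0.90 on the log2 scale, so on unscaled CPM the median of all genes is -0.99 and that of the 41 genes 1.06, with 35 of 41 above 0. On pooled unscaled CPM the called genes Sec24c, Copz1, Arf1 and Tmed5 were below their GC level (log2 ratios -0.06, -0.19, -0.07 and -0.36), and with immunoglobulin genes left out of the total they were above it. Most PC carried the other barcode suffix, so suffix and state cannot be told apart for them. Among cells of the first barcode suffix alone, with a minimum of 3 cells per sum, an alternative added after the data were seen, 28 of the 39 genes were still called higher and Sec24b was not called, with a median of 1.13. With the minimum of 10 cells only PC of mouse 2 entered, and 16 were called.

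Within COPII the gene with the largest difference was Sec24d, one of 4 paralogs of the cargo-binding inner coat. It had 128, 108 and 151 CPM in PC of mice 1, 2 and 3, against 2.70, 3.73 and 2.57 CPM in GC, a log2 fold change of 5.42 ± 0.22 (edgeR adjusted p = 6.38e-12). Every PC sum was far above every GC sum, and the smallest PC value was that of mouse 2. Sec24a, its closest follower in size of change, had 93.6, 70.9 and 114 CPM in PC, against 13.97, 17.6 and 15.4 CPM in GC (log2 fold change 2.54 ± 0.21). Preb, the exchange factor that loads Sar1 with GTP, had 206, 195 and 187 CPM in PC and 40.4, 41.6 and 43.9 CPM in GC (log2 fold change 2.22 ± 0.09). In both, the lowest PC value exceeded the highest GC value. Sec24c had 43.2, 30.95 and 36.7 CPM in PC, against 20.2, 21.5 and 20.7 CPM in GC, a log2 fold change of 0.84 ± 0.17 (adjusted p = 0.000621) that did not keep its sign on unscaled CPM. Sec24b was the exception in direction: it had 10.1, 10.3 and 9.18 CPM in PC, against 19.1, 20.4 and 19.9 CPM in GC, a log2 fold change of -0.995 ± 0.25 (adjusted p = 0.00328). All 3 PC values were below all GC values, on 20 UMIs in PC in all, and the direction was the same on unscaled CPM and per cell.

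The other COPII genes were all higher in PC. The log2 fold change was 2.20 ± 0.16 for Sec23b and 1.87 ± 0.27 for Sec23a, the inner coat subunits that pair with Sec24, 1.84 ± 0.14 for Sec31a and 1.40 ± 0.08 for Sec13 of the outer cage, and 1.98 ± 0.18 for Sec16a, the scaffold of ER exit sites. For the Sar1 GTPases it was 2.06 ± 0.07 for Sar1a and 0.998 ± 0.11 for Sar1b. Among cells of the first barcode suffix alone, Sec24d had the largest log2 fold change of the group, while Sec23a (-1.46), Sec24c (-0.92) and Sar1b (-0.18) were below 0 and not called, with 1 UMI of Sec23a, 4 of Sec24c and 37 of Sar1b in those 20 PC.

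The promoter windows of the pair with opposite directions are shown because they also differ in the letters searched for. For 34 of the 41 genes RefSeq (GRCm38.p6) gave a window of 250 bases before to 50 after the start. TGACGTGG, a sequence known to be bound by the unfolded protein response factor XBP1, was searched on both strands and found in 5 of the 34 genes (14.7%: Arf1, Copb1, Copb2, Sec23a and Sec24d), against 1.05% of 9832 genes of the matrix with a window. The shorter CCACGT, which lies within the reverse complement of TGACGTGG, was found in 18 of the 34 (52.9%), against 13.04% of the 9832. The longer elements known as ERSE and ERSE-II were found in none of the 34, and in 17 and 9 of the 9832. A match describes letters only. The 200 bases before the start follow 5' to 3' in gene orientation (Sec24d chr3:123267296-123267495, plus strand; Sec24b chr3:130060908-130061107, minus strand), with TGACGTGG in capitals in Sec24d and ACGTGG, the reverse complement of CCACGT, in Sec24b.
Sec24d: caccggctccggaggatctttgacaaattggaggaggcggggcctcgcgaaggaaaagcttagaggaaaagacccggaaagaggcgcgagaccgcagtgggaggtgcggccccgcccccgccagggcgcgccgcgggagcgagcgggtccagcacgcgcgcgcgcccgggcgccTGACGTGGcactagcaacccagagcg
Sec24b: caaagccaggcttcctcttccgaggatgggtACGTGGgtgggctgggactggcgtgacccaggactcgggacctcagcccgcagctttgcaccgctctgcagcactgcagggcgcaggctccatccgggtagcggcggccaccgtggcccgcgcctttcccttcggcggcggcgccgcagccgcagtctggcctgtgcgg

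In Sec24d the match lay 26 to 19 bases before the start, and in Sec24b the shorter one lay 169 to 164 bases before it. Xbp1 itself had 3558, 4075 and 2474 CPM in PC, 281, 260.2 and 319 CPM in prePC and 118, 106 and 109.7 CPM in GC, with log2 fold changes of 4.91 ± 0.12 in PC and 1.36 ± 0.13 in prePC against GC (edgeR adjusted p = 1.37e-14 and 2.15e-06). Creb3l2, a related factor that was studied with secretory genes in cartilage cells, had 159.8, 144 and 141 CPM in PC and 14 UMIs in all GC cells. Both were highest in PC in all 3 mice. Whether either factor binds these windows was not tested.

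All 10 genes of COPI and the Arf cycle were higher in PC. Arfgap3, which makes Arf hydrolyse its GTP so that the coat comes off, led with 87.8, 87.7 and 66.1 CPM in PC, against 8.74, 7.11 and 7.05 CPM in GC (log2 fold change 3.42 ± 0.20). Arf4, a GTPase of the early Golgi, had 571, 499 and 489 CPM in PC and 99.7, 109 and 99.01 CPM in GC (log2 fold change 2.34 ± 0.11). Cope, the epsilon subunit of the coat, had 969, 905 and 883 CPM in PC and 186, 196 and 198 CPM in GC (log2 fold change 2.25 ± 0.10). In these 3 genes each PC value was several times the highest GC value. At the other end, Arf1, the GTPase that recruits the coat, had 547, 605 and 533 CPM in PC, against 328, 318 and 319.7 CPM in GC (log2 fold change 0.81 ± 0.09), and Copz1, the zeta subunit, had 158, 165 and 151 CPM in PC, against 96.5, 96.4 and 98.8 CPM in GC (0.70 ± 0.09). Neither overlapped between the groups, and both log2 ratios were below 0 on unscaled CPM. The remaining coat subunits lay close together, with log2 fold changes of 1.72 ± 0.08 for Copg1, 1.62 ± 0.08 for Copb2, 1.44 ± 0.11 for Copa, 1.35 ± 0.10 for Arcn1 and 1.34 ± 0.09 for Copb1. The subunits of the coat spanned log2 fold changes between 0.70 and 2.25.

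The cargo receptors held the most genes with large changes. Lman1, the lectin that carries glycoproteins out of the ER, had 889.6, 816 and 793 CPM in PC, against 50.8, 58.7 and 61.5 CPM in GC, a log2 fold change of 3.96 ± 0.14 (edgeR adjusted p = 1.38e-12). Tmed10, a p24 protein of COPII and COPI vesicles, had 1172, 1079 and 867 CPM in PC and 96.03, 98.7 and 102 CPM in GC (log2 fold change 3.40 ± 0.13). Surf4, a receptor for soluble secreted proteins, had 399, 423 and 457 CPM in PC and 48.8, 46.7 and 46.1 CPM in GC (log2 fold change 3.18 ± 0.07). No PC sum of these genes came near a GC sum. Mcfd2, the soluble partner of Lman1, had 57.6, 55.5 and 69.8 CPM in PC and 12.00, 5.87 and 9.77 CPM in GC (log2 fold change 2.82 ± 0.22). The KDEL receptors, which return ER chaperones, had log2 fold changes of 2.98 ± 0.07 (Kdelr1) and 2.71 ± 0.08 (Kdelr2). The lectin Lman2 had 2.73 ± 0.10, and the p24 proteins had 2.69 ± 0.15 for Tmed3, 2.52 ± 0.09 for Tmed2 and 1.95 ± 0.13 for Tmed9. The smallest changes were in the same p24 family. Tmed7 had 53.3, 52.9 and 45.9 CPM in PC, against 20.1, 17.1 and 19.5 CPM in GC (1.44 ± 0.13), and Tmed5 had 158, 172 and 208 CPM in PC, against 131, 121 and 126 CPM in GC (0.51 ± 0.10, adjusted p = 0.000537). The log2 fold changes of the p24 genes ranged between 0.51 and 3.40.

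The windows of Tmed10 and Mcfd2 are shown because, after Sec24d, they had the largest changes among genes with the shorter letters before their start. CCACGT or its reverse complement ACGTGG is in capitals in the 200 bases before the start (Tmed10 chr12:85374718-85374917, minus strand; Mcfd2 chr17:87265948-87266147, minus strand; RefSeq, GRCm38.p6).
Tmed10: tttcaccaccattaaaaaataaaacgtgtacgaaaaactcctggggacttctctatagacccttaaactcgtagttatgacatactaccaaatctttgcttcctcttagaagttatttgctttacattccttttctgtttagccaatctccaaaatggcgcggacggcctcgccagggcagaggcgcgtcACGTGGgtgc
Mcfd2: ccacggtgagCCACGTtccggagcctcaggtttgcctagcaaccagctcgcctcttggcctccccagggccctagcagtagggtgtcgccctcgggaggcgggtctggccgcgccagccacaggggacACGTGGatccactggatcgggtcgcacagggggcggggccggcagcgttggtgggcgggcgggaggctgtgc

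In Tmed10 the match lay 10 to 5 bases before the start, and Mcfd2 had a match 190 to 185 and another 72 to 67 bases before it. Windows of genes with small changes held the same letters, among them Arf1, Copz1, Sec24c and Sec24b. Conversely, the windows of Arfgap3, Bet1, Surf4, Kdelr1 and Lman2, which had large changes, held none of the letters searched for.

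Of the tethers and SNAREs, Bet1, a SNARE of ER-to-Golgi vesicles, had 230.3, 208 and 191 CPM in PC, against 23.03, 21.9 and 22.7 CPM in GC (log2 fold change 3.22 ± 0.09). Yipf5, a membrane protein that cycles between the ER and the Golgi, had 279, 235 and 224 CPM in PC and 39.7, 34.98 and 35.8 CPM in GC (2.74 ± 0.09). Uso1, the tether p115, had 59.02, 49.01 and 69.8 CPM in PC and 15.3, 16.6 and 15.6 CPM in GC (1.90 ± 0.17). All 3 were separated from GC in every mouse. The SNAREs Sec22b (1.84 ± 0.09) and Gosr2 (1.69 ± 0.13) came next. Golgb1, the golgin giantin, had 121, 111 and 118 CPM in PC, against 52.9, 47.7 and 52.5 CPM in GC (1.23 ± 0.11). Trappc3, a subunit of the TRAPP tethering complex, had 50.4, 45.1 and 58.8 CPM in PC, against 55.98, 60.7 and 59.7 CPM in GC (-0.23 ± 0.13, adjusted p = 0.172), and the groups overlapped. Its pooled UMIs per cell were above the GC value (log2 ratio 0.35), while its share of UMIs was below it.

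**Figure D2:**
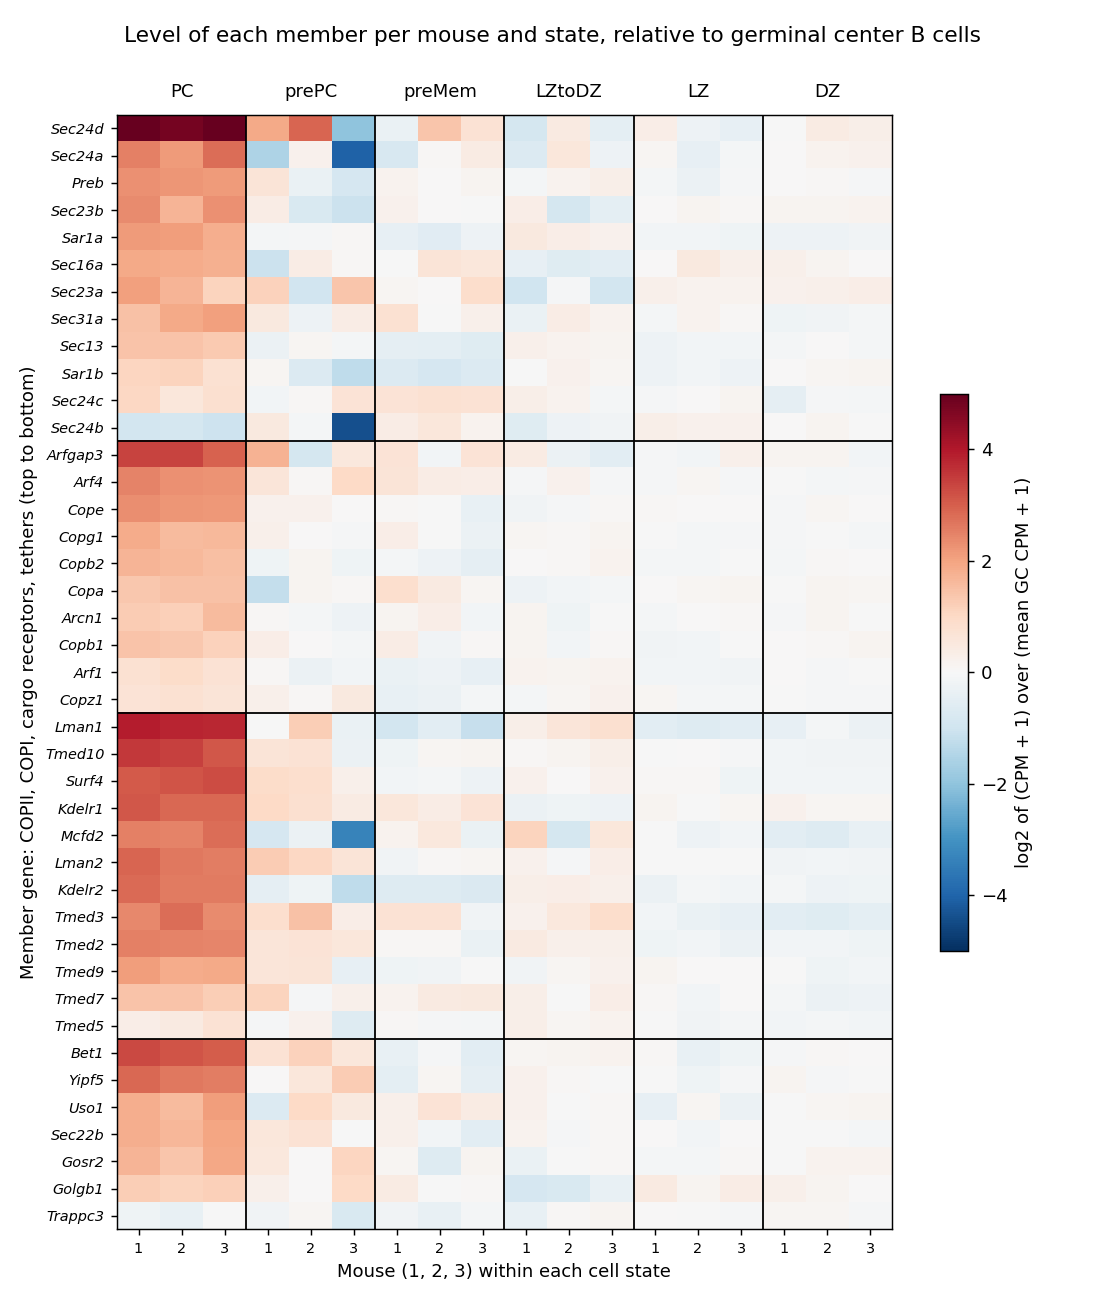
Level of each gene (rows, ordered by role and by fold change in PC) in each mouse and state (columns), as log2 of CPM + 1 over the mean GC CPM + 1. The 3 PC columns are red in all rows except Sec24b and Trappc3, and the prePC columns, which rest on 10 to 22 cells each, vary most between mice.

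The 41 genes took a larger part of the RNA of PC on every scale tried. Their summed share of UMIs was 0.701% ± 0.0621 in PC, 0.325% ± 0.0254 in prePC, 0.264% ± 0.00895 in preMem and 0.302% ± 0.00178 in GC (SD, n = 3 mice). Among the GC states LZtoDZ stood at 0.324% ± 0.00689, close to prePC, with LZ at 0.294% ± 0.000512 and DZ at 0.303% ± 0.00313. PC held 2.32 times the GC share, 3.56 times with immunoglobulin genes left out of the total, and 6.72 times the UMIs per cell. By role the PC share over the GC share was 3.62 for cargo receptors, 1.89 for tethers and SNAREs, 1.78 for COPII and 1.63 for COPI and the Arf cycle. The prePC share over the GC share was 1.30 for cargo receptors and 0.847 for COPII, and cargo receptors of prePC ranged between 0.0947% and 0.146% over the mice. In LZtoDZ the cargo receptors ranged between 0.111% and 0.122%, within the range of prePC. Trappc3 was highest in DZ and Sec24b in preMem, and the other 39 genes were highest in PC.

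**Figure D3:**
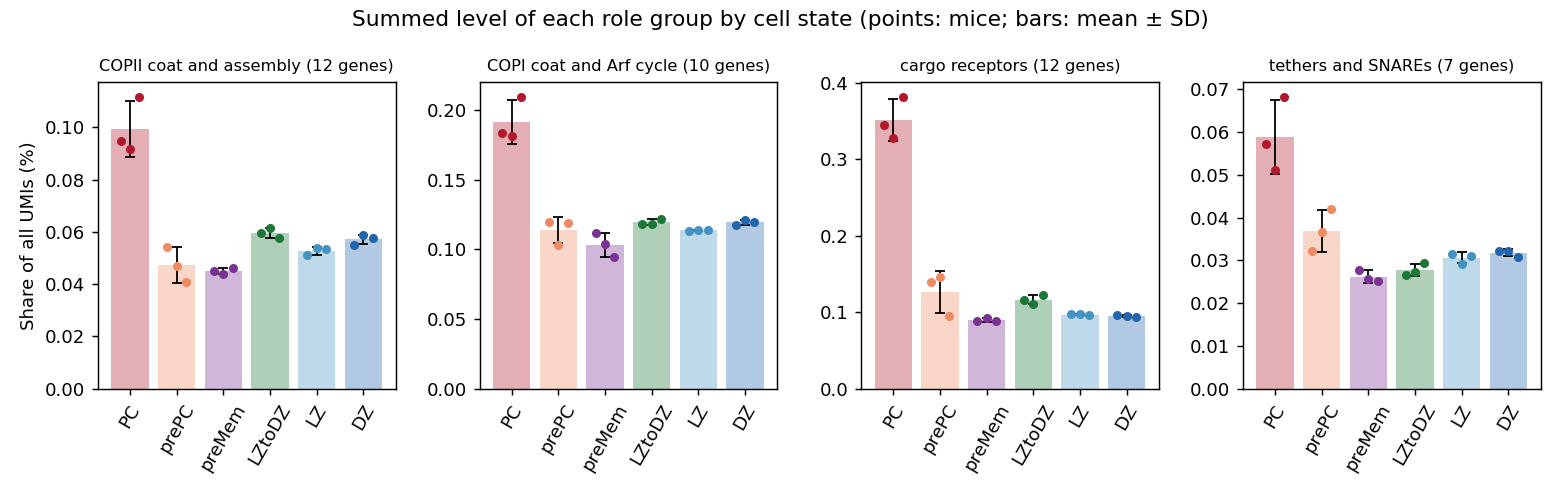
Summed share of all UMIs taken by each role group in each state, with 1 point per mouse and bars at the mean ± SD over the 3 mice. PC is highest in each panel, and the gap is widest for cargo receptors, at 0.351% in PC and 0.0972% in GC.

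In prePC 8 genes were higher than in GC and none was lower (edgeR, adjusted p under 0.05), where 10.5% of all genes tested were called higher and 7.48% lower. Cargo receptors gave 6 of the 8, COPII gave Sec24d and the SNAREs gave Bet1. No gene of COPI and the Arf cycle passed the test, and 1 of its 10 did at an unadjusted p under 0.05. The median log2 fold change was 0.61 for cargo receptors, 0.53 for tethers and SNAREs, 0.11 for COPI and -0.04 for COPII, against -0.07 over all genes tested. The prePC had values of the authors' plasma cell score between 0.251 and 0.396, with 13 of the 49 cells within 0.02 of the lowest value. Whether the state was set by that score was not tested. The sources at hand do not list the genes of that score, so some of the 41 may be among them.

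Lman2 had 225, 194 and 148 CPM in prePC of mice 1, 2 and 3, against 94.6, 88.6 and 97.3 CPM in GC, a log2 fold change of 1.06 ± 0.13 (edgeR adjusted p = 3.30e-05). Kdelr1 had 122, 106 and 79.9 CPM in prePC and 61.8, 59.03 and 60.1 CPM in GC (0.84 ± 0.15), and Tmed2 had 239, 249 and 228 CPM in prePC and 162, 155 and 149 CPM in GC (0.64 ± 0.10). In all 3 genes each prePC value was above the GC value of every mouse. Surf4 had 88.9, 84.3 and 57.1 CPM in prePC and 48.8, 46.7 and 46.1 CPM in GC (0.79 ± 0.18), and Bet1 had 37.4, 51.3 and 34.2 CPM in prePC and 23.03, 21.9 and 22.7 CPM in GC (0.94 ± 0.27). Tmed3 had 32.7, 51.3 and 22.8 CPM in prePC and 16.3, 17.2 and 19.8 CPM in GC (1.23 ± 0.38). These genes were highest in mouse 1 or 2 and lowest in mouse 3, which gave the fewest prePC. Tmed10 had 154, 165 and 79.9 CPM in prePC and 96.03, 98.7 and 102 CPM in GC (0.50 ± 0.17, adjusted p = 0.0487), with mouse 3 below GC. Sec24d had 14.04, 29.3 and 0 CPM in prePC and 2.70, 3.73 and 2.57 CPM in GC (2.69 ± 0.72, adjusted p = 0.015), on 11 UMIs in all, with none in mouse 3.

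These prePC results rest on few cells. By cluster, 40 of the 49 shared one with most preMem cells and 9 were elsewhere, and of the 9, 6 were in S or G2/M by the authors' call. With the 40 alone (sums of at least 10 cells, which leaves out mouse 3), Lman2 and Kdelr1 were still called and Kdelr2 was called lower (log2 fold change -0.99). With a minimum of 9 cells, added after the data were seen, Tmed2 was called as well, and Kdelr2 (-1.13) and Sar1b (-0.84) were lower. Without mouse 1 the calls were Lman2, Kdelr1 and Tmed2, with Sar1b lower, and without mouse 2 they were the same 3 and Arf4. Cells with RNA of other types were 4 of 49. Without them 6 of the 8 genes were still called, Bet1 (0.89, adjusted p = 0.0816) and Tmed3 (1.29, adjusted p = 0.0552) were not called at estimates close to those with all cells, and Lman1 and Tmed9 were called.

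Several genes that were high in PC were not called in prePC. Lman1 had 56.1, 136 and 45.6 CPM in prePC, against 50.8, 58.7 and 61.5 CPM in GC (log2 fold change 0.68 ± 0.23, edgeR adjusted p = 0.0598), and only mouse 2 was clearly above. It was called higher under DESeq2 (0.71, adjusted p = 0.0223) and in other refits, whereas the estimate was -0.026 without mouse 2. With prePC of the preMem cluster it was 0.033 at the minimum of 10 cells, which leaves out mouse 3. With all 40 of them, at a minimum of 9 cells, it was negative. With a minimum of 20 cells, which leaves prePC of mouse 2 alone, it was 1.25. Tmed9 (0.44, adjusted p = 0.0733) was likewise called under DESeq2 (0.49, adjusted p = 0.00836) and not without mouse 1 or mouse 2. Kdelr2 had 60.8, 73.3 and 34.2 CPM in prePC, against 83.3, 86.00 and 83.7 CPM in GC (-0.45 ± 0.23, adjusted p = 0.211), so its estimate was below 0 where that of its paralog was above. Mcfd2 had 3 UMIs in prePC, a ratio to GC of 0.634 (exact 95% interval 0.130 to 1.87, counting error only). Counts were simulated for this comparison with a fixed dispersion (spread beyond counting) and no mouse effect. They were matched neither to the spread of these genes between mice nor to their levels. There 45 of 100 genes with a true change of 2-fold and 94 of 100 with 4-fold were recovered, so smaller changes could be missed at this depth. Of the genes called, 7.33% were false.

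PC and prePC were compared directly in the same fit. Of the 41 genes, 36 were higher in PC and none was lower (edgeR, adjusted p under 0.05, with 13.7% of all genes tested called higher). They comprised all 8 genes called in prePC and 28 of the other 31 genes called in PC. Sec23a, Sec24c, Tmed7, Sec24b and Trappc3 were not called. The largest differences were those of Lman1 (log2 fold change 3.28 ± 0.25) and Kdelr2 (3.15 ± 0.16) among genes with more than 3 UMIs in prePC. For Mcfd2 the ratio of PC to prePC on unscaled UMIs was 6.78 (exact 95% interval 2.26 to 33.3). Among cells of the first barcode suffix alone, with a minimum of 3 cells, 13 genes were called higher, Kdelr2 (2.45), Tmed10 (1.64) and Lman1 (1.49) among them, and with the minimum of 10 cells 4 were.

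Since prePC and preMem mostly share a cluster, prePC were also set against preMem. Lman1 (1.45 ± 0.30), Bet1 (1.23 ± 0.32), Lman2 (1.04 ± 0.17), Surf4 (0.95 ± 0.22) and Tmed2 (0.69 ± 0.13) were higher in prePC by log2 fold change and none of the 41 was lower (edgeR, adjusted p under 0.05, with 6.07% of all genes tested called, 3.33% higher). Lman1 had 56.1, 136 and 45.6 CPM in prePC, against 29.9, 39.6 and 25.4 CPM in preMem. Kdelr1 did not pass (0.28 ± 0.20), with 122, 106 and 79.9 CPM in prePC and 89.7, 77.8 and 97.3 CPM in preMem, and those values overlapped. Without mouse 1 only Lman1 was called, while Bet1 (1.32) and Tmed2 (0.76) kept estimates as large, and without mouse 2 none was. With the 40 prePC of the shared cluster none was called at the minimum of 10 cells, which drops mouse 3, and 2 were at the minimum of 9.

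**Figure D4:**
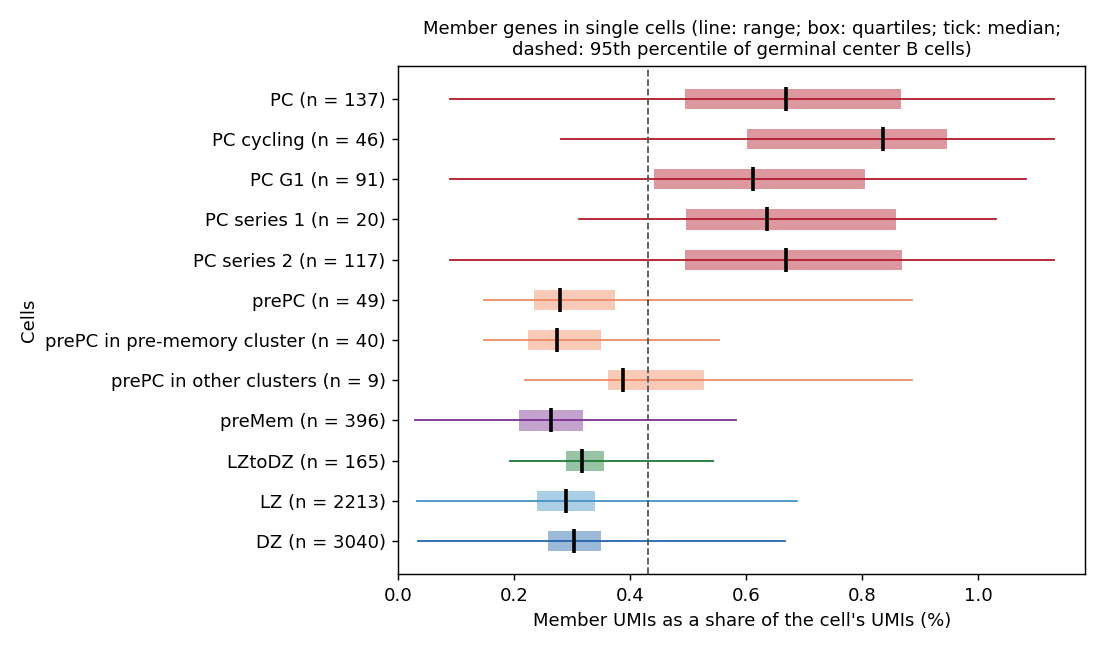
UMIs of the 41 genes as a share of each cell's UMIs, with the range as a line, the quartiles as a box and the median as a tick. The dashed line is the 95th percentile of GC cells, 0.431%. The PC boxes lie right of it, and only prePC outside the preMem cluster reach it with their box.

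In single cells PC again ranked highest, while the median of prePC was below that of GC. The median share of the 41 genes was 0.668% in PC, 0.279% in prePC, 0.263% in preMem and 0.299% in GC cells. In LZtoDZ alone it was 0.317%. Above the 95th percentile of GC cells (0.431%) lay 115 of 137 PC and 7 of 49 prePC (4 of the 40 in the preMem cluster and 3 of the 9 elsewhere). Median depth was 24018 UMIs in PC, 9225 in prePC and 7195 in GC. PC of the first barcode suffix had 11.4% immunoglobulin UMIs and a share of 0.695% without them, against 39.4% and 1.15% in PC of the second. Of the PC with the first suffix, 13 of 20 were in S or G2/M, against 33 of 117 with the second, so suffix and cell cycle move together.

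The share of each paralog within its set is not affected by how a library is scaled. Of the UMIs of the 4 Sec24 genes, Sec24d made up 46.6, 49.1 and 48.5% in PC of the 3 mice, against 5.51, 5.95 and 4.97% in GC, and Sec24b made up 3.66, 4.68 and 2.96% in PC, against 36.7, 34.9 and 33.7% in GC. Sec24c made up 13.9% ± 1.94 in PC and 32.5% ± 1.92 in GC, and Sec24a 34.3% ± 2.27 in PC and 26.9% ± 0.650 in GC (SD, n = 3 mice). In these sets GC is the pooled UMIs of the 3 GC states of a mouse. The leading paralog was Sec24d in every PC sum and Sec24b in the GC of mice 1 and 2. Arf4 made up 51.1, 45.2 and 47.8% of Arf1 and Arf4 in PC, against 24.02, 24.9 and 24.4% in GC. Sar1b made up 45.4, 46.9 and 45.2% of both Sar1 genes in PC, against 65.01, 66.9 and 66.3% in GC. None of these shares overlapped between PC and pooled GC, but Sec24a reached 34.4% in LZtoDZ of mouse 2, above PC of mice 1 and 2. The share of Sec23b among the Sec23 genes was 80.4% ± 6.51 in PC and 74.6% ± 0.496 in GC. For the KDEL receptors, Kdelr2 stood at 53.4, 53.5 and 53.5% in PC and 53.3, 55.01 and 54.4% in GC, whereas it made up 33.3, 40.8 and 30.00% in prePC. With 3 mice the exact two-sided sign-flip permutation test cannot go below p = 0.25, which it gave for Sec24a, Sec24b, Sec24c, Sec24d, Arf4, Sar1b and Sec23b in PC against GC and for Sec24a, Arf4 and Kdelr2 in prePC against GC. The prePC share of Arf4 was 33.7% ± 6.40, and that of Sec24a was 9.33% ± 10.6 on 6 UMIs.

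**Figure D5:**
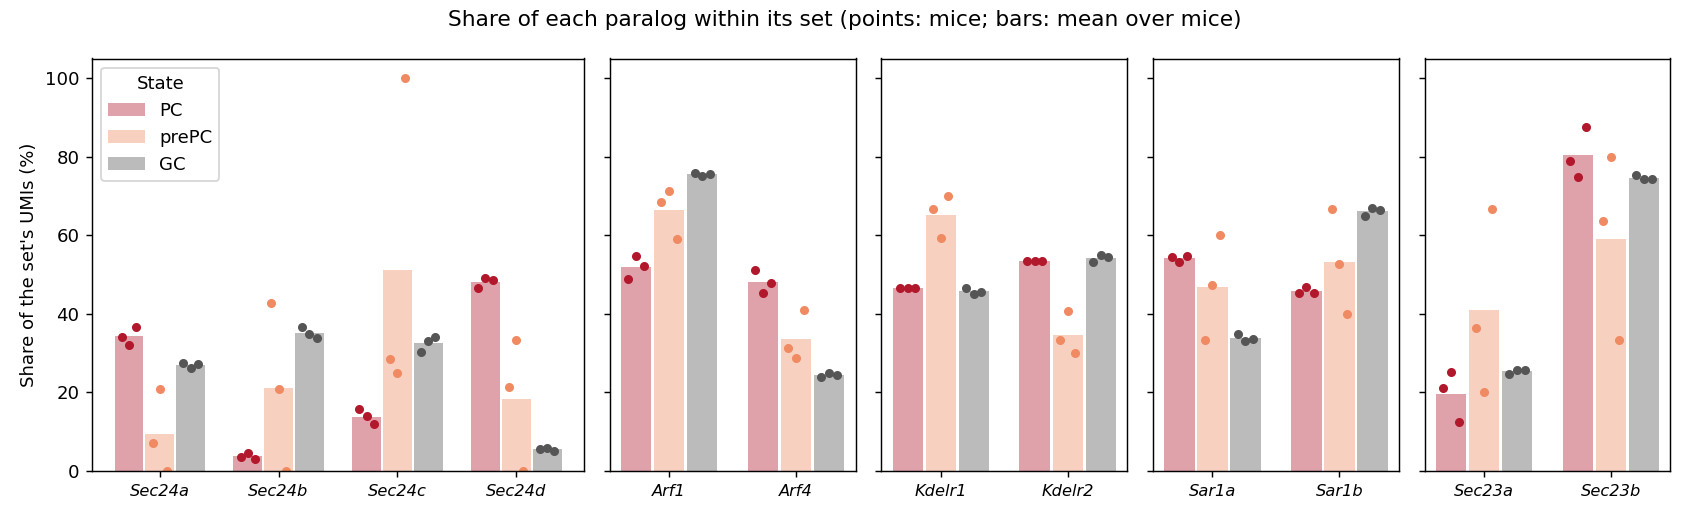
Share of each paralog among the UMIs of its set in PC, prePC and GC, with 1 point per mouse and bars at the mean. Sec24d is at 46.6% to 49.1% in PC and at or below 5.95% in GC. The prePC values of the Sec24 genes rest on 14, 24 and 3 UMIs and those of the Sec23 genes on 11, 5 and 3.

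The levels in PC also varied with the cell cycle. Cells in S or G2/M by the authors' call were set against G1 cells in a second fit (sums of at least 5 cells, 9089 genes). In PC, 16 of the 41 genes were lower in cycling than in G1 cells and 1 was higher (edgeR, adjusted p under 0.05), where 8.82% of all genes tested were called lower and 11.4% higher. Tmed10 had 768, 712 and 574 CPM in cycling PC, against 1412, 1198 and 1062 CPM in G1 PC (log2 fold change -0.84 ± 0.12, adjusted p = 7.56e-05). Cope had 659, 650.0 and 639 CPM in cycling PC and 1136, 953 and 1007 CPM in G1 PC (-0.67 ± 0.10), and Arf4 had 443, 341 and 329.6 CPM in cycling PC and 602, 542 and 589.8 CPM in G1 PC (-0.64 ± 0.10). These groups did not overlap. The largest estimates were those of Sec23a (-1.12 ± 0.35) and Sec31a (-0.99 ± 0.23), and 6 of 12 COPII genes, 6 of 12 cargo receptors, 2 of 10 COPI genes and 2 of 7 tethers and SNAREs were lower. Kdelr2 was the higher gene, with 597, 572 and 466 CPM in cycling PC, against 467, 345 and 460.1 CPM in G1 PC (0.38 ± 0.12, adjusted p = 0.0382). Its groups overlapped narrowly, since cycling PC of mouse 3 lay just below G1 PC of mouse 1. The Kdelr2 call was lost under DESeq2 (0.30, adjusted p = 0.0676) and without any 1 mouse (between 0.10 and 0.42). That of Sec23a was also lost without any 1 mouse, and that of Sec31a without mouse 2.

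The direction of this difference depends on the scale. Immunoglobulin genes took 20.1% of the UMIs in cycling PC and 48.0% in G1 PC. As a share of all UMIs the 41 genes were at 0.798% in cycling PC and 0.613% in G1 PC, and without immunoglobulin genes at 0.998% in cycling PC and 1.18% in G1 PC. On unscaled CPM the median log2 fold change was 0.31 for the 41 genes and 0.71 for all genes. The change of scale adds the same amount to both medians, so their order is the same on both scales by construction. Within PC of the second barcode suffix alone, 13 genes were lower and 1 was higher.

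Within DZ, 11 genes were lower in cycling than in G1 cells and 1 was higher, where 37% of all genes tested were called, 23.9% lower and 13.1% higher. The median was -0.13 for the 41 genes and -0.15 for all genes tested. The share of the 41 genes called in either direction was thus below that of all genes, and the medians were close. Golgb1 had 53.4, 48.4 and 43.6 CPM in cycling DZ cells and 69.3, 70.7 and 69.1 CPM in G1 DZ cells (-0.54 ± 0.10), and Copa had 37.2, 44.3 and 41.2 CPM in cycling and 50.6, 51.9 and 53.8 CPM in G1 DZ cells (-0.34 ± 0.06). The higher gene was Kdelr2, with 80.2, 72.2 and 72.7 CPM in cycling and 59.4, 52.3 and 60.96 CPM in G1 DZ cells (0.38 ± 0.12). Each of these genes was separated in all 3 mice. Without 1 mouse in turn, the number of lower genes was 2 or 3, with all-gene medians between -0.04 and -0.03. Kdelr2 and Golgb1 were called in each of these fits, and Copa was not without mouse 1 or mouse 3.

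Among GC states, LZtoDZ and LZ were compared. In LZtoDZ 8 of the 41 genes were higher and 5 lower than in LZ (edgeR, adjusted p under 0.05), where 22.5% of all genes tested were called higher and 24.3% lower, so the share of calls was below that of all genes. Lman1 had 70.7, 86.6 and 98.8 CPM in LZtoDZ, against 39.4, 36.2 and 39.7 CPM in LZ (log2 fold change 1.15 ± 0.21), and Tmed3 had 20.8, 26.3 and 33.96 CPM in LZtoDZ, against 15.97, 13.8 and 13.2 CPM in LZ (1.003 ± 0.20). Both cargo receptors were above LZ in every mouse. Tmed2 (0.54 ± 0.12), Sar1a (0.49 ± 0.09), Kdelr2 (0.48 ± 0.12), Sec13 (0.38 ± 0.10), Preb (0.32 ± 0.12) and Arf1 (0.32 ± 0.12) were the others. Golgb1 had 27.8, 30.1 and 38.9 CPM in LZtoDZ, against 70.6, 56.7 and 66.5 CPM in LZ (-0.95 ± 0.13), and Sec23a (-0.89 ± 0.35), Sec16a (-0.88 ± 0.23), Sec24b (-0.54 ± 0.17) and Kdelr1 (-0.34 ± 0.11) were also lower. The KDEL receptors differed in direction, with Kdelr2 higher and Kdelr1 lower. Of the 5 lower genes, 3 were called under DESeq2 (not Sec23a and Sec24b) and 3 with no count filter (not Sec23a and Kdelr1). Golgb1 was called whichever mouse was left out. Kdelr1 was lost whichever mouse was left out, while Sec23a was lost without mouse 1 or 3, Sec16a without mouse 2 or 3, and Sec24b without mouse 1 or 2. Among the higher genes Arf1 was lost without each mouse, Preb without mouse 2 or 3 and Sec13 without mouse 1. Of the LZtoDZ cells 148 of 165 were in S or G2/M, against 978 of 2213 LZ cells, and the part of the cell cycle in these values was not tested.

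Between DZ and LZ none of the 41 genes was called (edgeR, adjusted p under 0.05), where 8.17% of all genes tested were called higher and 11.3% lower. At an unadjusted p under 0.05 there were 8, and DESeq2 called 2 (Sar1b and Arf1, both higher in DZ). Without immunoglobulin genes 4 were higher (Sar1b, Lman1, Copb1 and Arf1) and 2 lower (Golgb1 and Tmed9). Log2 fold changes lay between -0.40 (Mcfd2) and 0.54 (Sec24d).

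Further genes of the same route that are not among the 41 were taken from a list of 59, of which 56 were in the matrix and 50 were tested. In PC 31 were higher and 5 lower than in GC (edgeR, adjusted p under 0.05, backgrounds 25.9% and 27.2% as above), with a median log2 fold change of 1.01. The 3 largest were Ergic1 (4.04 ± 0.12), a membrane protein of the compartment between ER and Golgi, Tmed6 (3.94 ± 0.52), a p24 protein, and Yipf6 (3.22 ± 0.17), of the same family as Yipf5. Copg2 (-1.44 ± 0.23), the paralog of the coat subunit Copg1, Tmed8 (-1.39 ± 0.40) and Trappc1 (-0.71 ± 0.14) were the lowest. In prePC none of the 50 was called in either direction. Like Sec24b, Copg2 is a coat gene that was lower in PC while a paralog was higher, and Trappc1 belongs to the same complex as Trappc3.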

How the data were processed

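The deposited matrix holds raw UMI counts per gene and cell, pooled over libraries, with the authors' table of cell state, cell cycle phase, cluster, plasma cell score and mouse. Per the submitters' processing notes, Cell Ranger and Seurat were used with the builds mm10 and GRCm38. No source at hand states their versions, how cells were filtered or how doublets were handled, and no doublet caller was run. The mouse of each cell was taken from the authors' table. Members and lists were chosen with earlier results of these data known.

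Counts were summed per mouse and state (at least 10 cells, or 5 per cell cycle phase) and fitted once with edgeR 4.0.16 in R 4.3.3 (filterByExpr, TMM, quasi-likelihood test, terms for state and mouse, Benjamini-Hochberg threshold 0.05). Cells of one mouse share that animal, so same-numbered sums are paired. Deviations from the state means had a median correlation of 0.0987 over 45 same-mouse pairs, the lowest at -0.106. Over 90 other pairs it was -0.0472. Deviations from a mean over 3 mice tie that value to the same-mouse value, so it adds no separate information. Standard errors are those that give each reported p with its degrees of freedom. In counts simulated for PC against GC, with a fixed dispersion and no mouse effect, 89 of 100 genes changed 2-fold and 100 of 100 changed 4-fold were recovered. The levels of the changed genes were not matched to those of the members. Of the genes called there, 5.97% were false. Named genes are members, the 3 largest other pathway genes in each direction, markers, and Xbp1 and Creb3l2. Alternatives were DESeq2 1.42.0, no count filter, no mouse term, leaving out each mouse, no immunoglobulin genes, other cell minimums, and subsets of cells by barcode suffix, cluster or RNA of other types. Promoter windows came from RefSeq tables of GRCm38.p6. Intervals cover counting error only.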

Additional observations from a re-analysis of the deposited data

How the results depend on the processing

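In the refits that kept both barcode suffixes, all 41 genes kept their direction and call in PC against GC, whereas on unscaled CPM 4 called genes changed sign and in UMIs per cell Trappc3 did. Without the second suffix, where PC is 1 sum of mouse 2 that is assumed to vary like the other groups, 16 were higher and 0 lower, and with a minimum of 3 cells 28 and 0. There Sar1b (-0.54 and -0.18), Sec23a (-7.72 and -1.46) and Sec24c (-1.92 and -0.92) were below 0, as was Sec22b (-0.036) at the minimum of 10. In all 20 such PC, Sec23a had 1 UMI and Sec24c 4, so their fitted values are no measure of size. PC against prePC then gave 4 and 13 higher, with Gosr2 (-0.11) and Sec22b (-0.46) below 0 at the minimum of 10. The cause was not tested.

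For prePC against GC, leaving out 1 mouse gave 3 to 9 higher and 0 to 1 lower. DESeq2 gave 10 higher. Lman1 (0.68) was 0.90 without mouse 1, -0.026 without mouse 2, and -0.34 in the preMem cluster with a minimum of 9 cells. Without the second suffix 1 was lower. Only prePC of the preMem cluster gave 2 higher and 1 lower, and with a minimum of 9 cells 3 and 2. For prePC against preMem these settings gave 0 to 5, 0 and 2 higher. For LZtoDZ against LZ, DESeq2 and no count filter gave 3 lower each, and leaving out 1 mouse 2 to 3. For DZ against LZ, DESeq2 gave 2 higher, no immunoglobulin genes 4 higher and 2 lower, a minimum of 20 cells 1, no second suffix 1, and leaving out 1 mouse 0 to 1. For cycling PC against G1, DESeq2 and leaving out any mouse gave 0 higher. For cycling DZ cells against G1, DESeq2 gave 2 higher, no immunoglobulin genes 4, and leaving out 1 mouse 1 to 2 higher and 2 to 3 lower.

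Without the replicate block (the mouse term), PC against GC gave 39 higher and 1 lower, and prePC against GC 11 higher. With the mean of DZ, LZ and LZtoDZ shares as GC, the share difference was -17.8 points for Sar1b, -29.7 for Sec24b and -4.53 for Kdelr2, all in PC minus GC. The summed level in PC over GC was 3.56 without immunoglobulin genes and 6.72 in UMIs per cell, where prePC stood at 1.41 and preMem at 0.477.

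Precision is limited by 10 to 22 prePC per mouse, and only 3 mice were sampled.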
